A study of Mus musculus with 9 samples.

Results

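The genes described here are 48 named members of the TGF-beta, BMP and GDF signalling pathway, chosen by name: ligands, secreted antagonists, latent TGF-beta binding proteins, receptors, Smads, modulators of Smad activity and target genes. Of these, 47 were among the 14108 genes counted in the tumours and all 47 were tested. Gdf10 was not analysed here. Ligands of this family bring together type I and type II serine/threonine kinase receptors at the cell surface, and the type I receptor then phosphorylates receptor-regulated Smads, which join Smad4 and enter the nucleus. TGF-betas and activins act mainly through Smad2 and Smad3, whereas BMPs and several GDFs act through Smad1, Smad5 and Smad9. In the mammary gland the pathway restrains epithelial growth and is also known for its part in matrix production and epithelial-to-mesenchymal transition.

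The mRNA of GFP+ cells sorted from 9 primary mouse mammary tumours was sequenced, 3 tumours from each of 3 breast cancer models named HR1, LM1 and LM9. HR1 is a non-metastatic line, started from a mammary tumour of a transgenic mouse that expressed mutant PIK3CA H1047R under the CAG promoter, and the LM1 and LM9 lines carry that allele too. Both LM lines were grown from lung tumour cells of NOD/SCID mice that had borne tumours of HR1 cells engineered with the doxycycline-inducible piggyBac (PB) transposon system, so each is 1 line that carries its own PB insertions. The labels name no treatment of the mice. For each tumour 250000 cells in Matrigel were placed in a mammary fat pad of a female NOD/SCID mouse (strain label NOD.CB17-Prkcd<scid>/J) of 4 to 8 weeks, a host that lacks functional T and B cells but keeps its own stroma, vessels and myeloid cells. The comparison of LM1 and LM9 with HR1 asks how tumours of metastatic lines differ from those of the non-metastatic line, and the comparison of LM9 with LM1 asks how far both metastatic models are alike.

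Between 32393958 and 46681945 reads were counted per tumour. The tumour labelled HR1 replicate 1 stood apart from the other HR1 tumours: *Nfib*, the transcription factor gene that carried PB insertions in the LM lines, was at 1343 CPM (read counts scaled to library size) in it against 23.9 and 18.3 CPM in HR1 replicates 2 and 3, and between 421 and 791 CPM in the 6 LM tumours. Results that rest on it are therefore given with and without that tumour. Epithelial markers were mixed: *Epcam* was at most 4.49 CPM and *Cdh1* at most 1.20 CPM in any tumour, while *Krt14* reached 152 to 175 CPM in LM1, and the summed level of 6 measured epithelial markers was 7.55 to 121 CPM in HR1, 158 to 181 CPM in LM1 and 14.4 to 18.0 CPM in LM9. The summed level of 10 fibroblast markers was 23968 to 35942 CPM in HR1, 10720 to 14089 CPM in LM1 and 9156 to 10708 CPM in LM9. Of these 10 fibroblast markers 9 fell in LM1 and LM9 together against HR1, and 6 of 10 measured leukocyte markers fell too. The summed leukocyte level was 155 to 629 CPM in HR1, 124 to 134 CPM in LM1 and 187 to 215 CPM in LM9. *Cd68* set most of the LM9 sum, at 107 to 138 CPM there. It was at 24.2, 122 and 41.2 CPM in HR1 and 15.9 to 17.9 CPM in LM1. Of 9 measured endothelial markers 6 fell and 2 rose. Their summed level was 6.90 to 33.5 CPM in HR1, 165 to 228 CPM in LM1 and 253 to 292 CPM in LM9. The 2 that rose were *Cdh5* (model means 6.17, 158 and 238 CPM in HR1, LM1 and LM9) and *Kdr* (1.10, 27.1 and 32.1 CPM). Of 6 measured epithelial markers 2 fell. Beside these marker counts, 19.9% of all genes tested were higher and 23.6% lower in LM1 and LM9 together against HR1. The part of other cells in the results below was not tested, and in bulk RNA fewer cells of a type and less RNA per cell cannot be told apart. The labels do not say that the tumours of a model came from separate mice, so p-values measure the spread between these tumours, which may be in part technical. All models share a single estimate of that spread, so the HR1 tumours also enter the p-values of LM9 against LM1.

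Promoter sequence is shown for 3 members whose levels the results turn on, namely *Id3*, which fell in both LM models, *Id2*, which rose in LM9, and *Tgfb1*, a ligand that fell by a like amount in both. Each is the run of 250 bases before the RefSeq start of the gene (GRCm38.p6), read 5′ to 3′ on the strand of the gene, with Smad-binding letters in capitals: GGCGCC, the GC-rich element, or CAGAC, the CAGA-type element, the latter searched on both strands and so also seen as GTCTG. The *Id3* window lies at chr4:136143572-136143821 on the plus strand, the *Id2* window at chr12:25096093-25096342 on the minus strand and the *Tgfb1* window at chr7:25686752-25687001 on the plus strand.
Id3: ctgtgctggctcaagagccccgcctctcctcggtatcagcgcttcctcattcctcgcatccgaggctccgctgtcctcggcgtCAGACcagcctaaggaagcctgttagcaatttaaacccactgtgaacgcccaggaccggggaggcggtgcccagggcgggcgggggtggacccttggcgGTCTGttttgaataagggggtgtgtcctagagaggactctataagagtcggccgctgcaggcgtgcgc
Id2: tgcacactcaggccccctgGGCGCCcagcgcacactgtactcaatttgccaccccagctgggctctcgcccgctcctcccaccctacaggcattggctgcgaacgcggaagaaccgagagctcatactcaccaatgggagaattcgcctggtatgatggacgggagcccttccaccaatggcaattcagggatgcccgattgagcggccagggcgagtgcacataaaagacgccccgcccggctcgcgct
Tgfb1: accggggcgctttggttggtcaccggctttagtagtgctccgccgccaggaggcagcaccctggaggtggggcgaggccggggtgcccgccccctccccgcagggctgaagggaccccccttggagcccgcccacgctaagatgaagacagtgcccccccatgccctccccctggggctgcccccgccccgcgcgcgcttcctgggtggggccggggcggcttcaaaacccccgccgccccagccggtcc
The *Id3* window held 2 CAGAC matches and no GGCGCC, the *Id2* window held 1 GGCGCC and no CAGAC, and the *Tgfb1* window held neither. Over all 32851 RefSeq windows of that length 9.59% held GGCGCC and 42.2% held CAGAC, and of the 33 tested members with a window 12 held GGCGCC and 16 held CAGAC. A match is a description of letters and not of a bound site. Windows were not used for *Bambi*, *Bmp1*, *Bmp2*, *Bmp7*, *Fst*, *Gdf6*, *Id1*, *Nog*, *Skil*, *Smad2*, *Smad4*, *Smad7*, *Tgfb3* and *Tgfbr3*.

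In LM1 and LM9 together against HR1, 19 of the 47 members passed the test (adjusted p under 0.05), of which 6 rose and 13 fell. That is 40.4% of the members beside 43.6% of all genes tested (19.9% higher, 23.6% lower), so the members differed about as often as genes in general. Over the members the median log2 fold change was −0.22, beside −0.05 over all genes. Receptors had 5 members lower and 1 higher of 11, Smads 3 lower and 1 higher of 8, targets 2 lower and 1 higher of 5, and ligands 2 lower of 12, whereas antagonists had 2 higher of 4 and latent binding proteins 1 in each direction of 4. None of the 3 modulators (*Skil*, *Smurf1*, *Smurf2*) passed in this comparison by edgeR, DESeq2 or limma-voom, and 0 of their unadjusted edgeR p-values were under 0.05.

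Against HR1 alone, LM1 had 16 members past the test, 4 higher and 12 lower, or 34% beside 35.5% of all genes (16.7% higher, 18.7% lower). LM9 also had 16, 5 higher and 11 lower, or 34% beside 42.3% of all genes (20.4% higher, 21.9% lower). Both comparisons share the 3 HR1 tumours, so their values are set side by side and not counted against each other. LM9 against LM1 gave 9 members, 3 higher and 6 lower, or 19.1% beside 22% of all genes (11.5% higher, 10.6% lower).

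**Figure D1:**
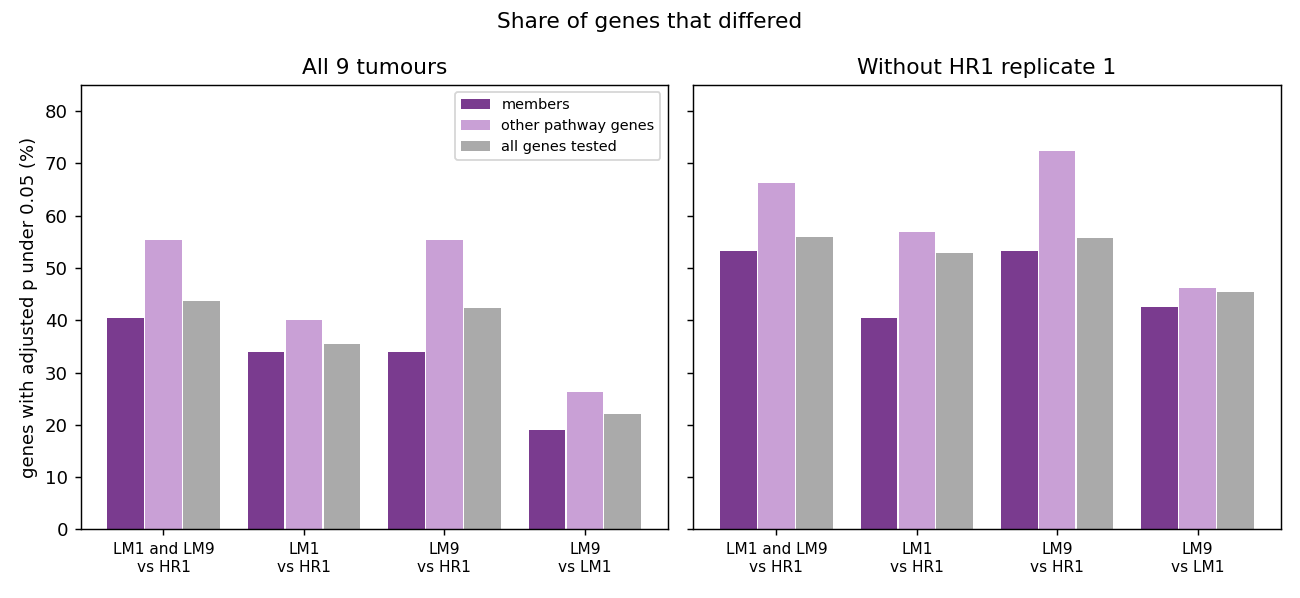
Share of genes with an adjusted p under 0.05 (vertical axis, %) among the 47 members, 65 other pathway genes and all genes tested, in 4 comparisons, with all 9 tumours (left) and without HR1 replicate 1 (right). Bars of the members lie below those of all genes in each comparison drawn, 40.4% against 43.6% in LM1 and LM9 together versus HR1.

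Leaving out HR1 replicate 1 raised the counts, for the members and for all genes. The members that passed became 25 for LM1 and LM9 together, beside 56% of all genes, and 17 of the 19 were still among them. *Smad6* and *Smad9* were lost and 8 were gained: *Bmp4* (log2 fold change −1.57), *Bmp7* (−3.09), *Inhbb* (−0.73), *Smad2* (−0.33), *Tgfb3* (0.94), *Tgfbi* (−1.29), *Tgfbr2* (1.00) and *Tgfbr3* (0.93). For LM1 there were 19 (beside 52.8%), with *Bambi*, *Inhba*, *Smad7* and *Smad9* lost and *Acvr2a*, *Bmp4*, *Ltbp1*, *Smad4*, *Smurf1*, *Tgfb3* and *Tgfbr2* gained. For LM9 there were 25 (beside 55.7%), with 0 lost and *Bmp4*, *Bmp7*, *Gdf15*, *Grem1*, *Id4*, *Smurf1*, *Tgfbi*, *Tgfbr2* and *Tgfbr3* gained. For LM9 against LM1 there were 20 (beside 45.5%), with 0 lost and 11 gained: *Bambi*, *Gdf15*, *Grem1*, *Id4*, *Ltbp1*, *Ltbp2*, *Smad4*, *Smad5*, *Tgfb2*, *Tgfb3* and *Tgfbr3*. The LM1 calls of *Tgfb2*, *Inhba*, *Tgfbr1*, *Bmpr1a*, *Bambi*, *Smad6*, *Smad7* and *Smad9* were each lost in at least 4 of the 9 fits that left out 1 tumour.

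**Figure D2:**
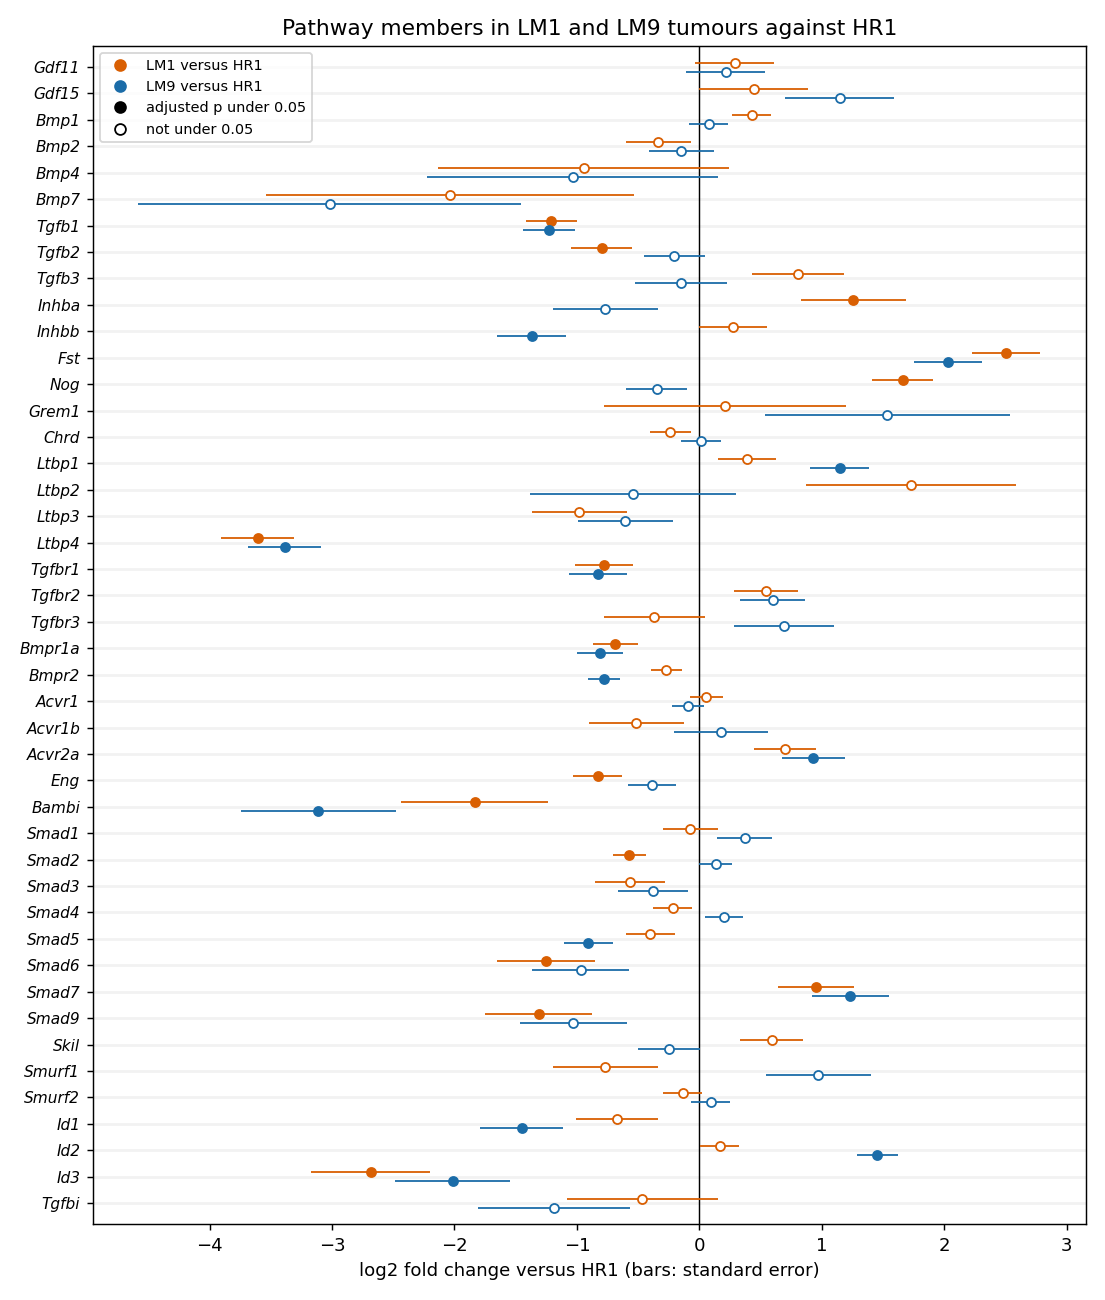
Log2 fold change against HR1 (horizontal axis, bars are standard errors) of 44 members in LM1 (orange) and LM9 (blue), with filled points for an adjusted p under 0.05. *Gdf6*, *Acvr2b* and *Id4*, at low counts in the LM tumours, are not drawn. *Ltbp4*, *Id3* and *Bambi* lie far to the left and *Fst* to the right in both models. *Bmp7*, with unfilled points, also lies far to the left (−2.03 in LM1 and −3.02 in LM9). Without HR1 replicate 1 the LM1 value of *Bambi* was −0.84 and did not pass.

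Among the ligands, *Gdf6* and *Tgfb1* fell in both LM models, and the genes of the activin beta subunits moved in 1 model each. *Gdf6*, a BMP-like ligand of skeletal and joint patterning (chromosome 4, 9844372 to 9862345, plus strand), was at 47.5, 36.3 and 53.8 CPM in the HR1 tumours. It had 9, 4 and 3 counts in the LM1 tumours and 0, 0 and 1 in LM9. No LM tumour came near the HR1 range. The fall was −8.54 ± 0.46 (log2 fold change ± s.e., edgeR adjusted p = 2.9e-05) in LM1, and with 3 counts per library taken as the floor LM9 was at least 686-fold lower than HR1.

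*Tgfb1*, the TGF-beta of wound repair and immune control, was at 56.8, 104 and 84.7 CPM in HR1. The LM1 tumours had 33.4, 37.6 and 35.4 CPM and the LM9 tumours 35.2, 38.5 and 31.2 CPM. All 6 LM tumours were below all HR1 tumours, and LM1 and LM9 overlapped. *Tgfb1* fell by 1.21 in LM1 and by 1.23 in LM9 on the log2 scale (s.e. 0.21 for each, edgeR adjusted p = 0.00312 and 0.00245). *Tgfb2*, the isoform of heart and palate development, was at 198, 103 and 113 CPM in HR1, 76.8, 89.3 and 72.0 CPM in LM1, and 138, 102 and 119 CPM in LM9. Its fall in LM1 was −0.80 ± 0.25 (adjusted p = 0.0358 by edgeR) and −0.44 without HR1 replicate 1, its highest tumour (adjusted p = 0.0348), while LM9 overlapped HR1 at −0.21 ± 0.25 (adjusted p = 0.531). *Tgfb3*, which regulates palate fusion and mammary involution, did not pass with all tumours, its HR1 levels running from 119 to 412 CPM and those of LM1 from 397 to 460 CPM. With HR1 replicate 1 left out it rose in LM1 by 1.42 (edgeR adjusted p = 0.000493).

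*Inhba* encodes the beta A subunit of activin A. It was at 7.95, 8.17 and 14.2 CPM in HR1, 21.6, 35.7 and 15.3 CPM in LM1, and 8.61, 5.88 and 3.31 CPM in LM9. LM1 lay above HR1, narrowly in LM1 replicate 3. The rise in LM1 was 1.26 ± 0.43 (edgeR adjusted p = 0.0487), and it missed the threshold without HR1 replicate 1 (log2 fold change 1.12, adjusted p = 0.0744 by the same test). In LM9 the log2 fold change was −0.77 ± 0.43 (adjusted p = 0.176). *Inhbb*, which encodes the beta B subunit, was at 48.9, 59.9 and 95.5 CPM in HR1, 83.3, 88.3 and 76.1 CPM in LM1, and 35.7, 20.8 and 22.6 CPM in LM9. LM1 lay inside the HR1 range and LM9 below it. *Inhbb* fell by 1.37 in LM9 (s.e. 0.28, edgeR adjusted p = 0.00563).

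The 7 ligands that passed in no comparison with all tumours were *Gdf11*, *Gdf15*, *Bmp1*, *Bmp2*, *Bmp4*, *Bmp7* and *Tgfb3*. *Bmp1*, a procollagen proteinase in spite of its name, had model means of 144, 194 and 152 CPM in HR1, LM1 and LM9. *Bmp4*, a ligand of limb and mammary bud development, had 0 counts in HR1 replicate 1, which allows up to 0.0997 CPM, against 12.6 and 11.4 CPM in the other HR1 tumours. It was at 3.46 to 4.75 CPM in all LM tumours. With all tumours its log2 fold change was −0.99 ± 0.99 for LM1 and LM9 together (adjusted p = 0.447), and without that tumour −1.57 (edgeR adjusted p = 7.79e-05). *Bmp7*, a ligand of kidney and eye development, was at 0.299, 47.9 and 4.07 CPM in HR1, so that 1 tumour set its mean. For *Gdf15*, a stress-induced member of the family, the LM9 difference of 1.15 did not pass (adjusted p = 0.0677), and with HR1 replicate 1 left out it was 0.74 (edgeR adjusted p = 0.011).

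Secreted antagonists bind ligands and keep them from receptors. *Fst*, which encodes the activin-binding protein follistatin (chromosome 13, 114452262 to 114458989, minus strand), was at 112, 46.6 and 86.0 CPM in HR1. All 3 LM1 tumours lay within 461 to 463 CPM, and the LM9 tumours had 352, 321 and 325 CPM. Every LM tumour was above every HR1 tumour, and every LM1 tumour above every LM9 tumour. *Fst* rose by 2.50 ± 0.28 in LM1 and by 2.03 ± 0.28 in LM9 (log2, edgeR adjusted p = 0.000437 and 0.000855), or 5.67-fold and 4.09-fold. LM9 and LM1 did not differ past the threshold in that fit (log2 fold change −0.47 ± 0.27, adjusted p = 0.227).

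*Nog* encodes noggin, which binds BMPs (chromosome 11, 89300638 to 89302559, minus strand). It was at 3.23, 2.34 and 3.17 CPM in HR1, at 10.2, 9.49 and 7.90 CPM in LM1 and at 2.13, 2.33 and 2.39 CPM in LM9. LM1 was above every other tumour, and LM9 overlapped HR1. The rise in LM1 was 1.66 ± 0.25 (edgeR adjusted p = 0.00165), while LM9 was at −0.35 ± 0.25 against HR1 (adjusted p = 0.28). Its call for LM1 and LM9 together (0.65 ± 0.22, adjusted p = 0.0389) averages those unlike values. *Grem1* (gremlin) and *Chrd* (chordin), both BMP antagonists, passed in no comparison with all tumours, at model means of 1.31 to 3.85 CPM and 14.0 to 16.7 CPM. *Grem1* had 0 counts in HR1 replicate 1, and with that tumour left out its value in LM9 was 0.97 against HR1 (edgeR adjusted p = 0.0282).

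Latent TGF-beta binding proteins tether the inactive ligand to the matrix. *Ltbp4* (chromosome 7, 27305140 to 27339720, minus strand) had 55.0, 41.4 and 51.2 CPM in HR1. It had 4.37, 4.67 and 3.07 CPM in LM1 and 5.19, 5.91 and 2.99 CPM in LM9. The LM tumours were far below the HR1 tumours and overlapped each other. *Ltbp4* fell by 3.61 in LM1 and by 3.39 in LM9 on the log2 scale (s.e. 0.30 for each, edgeR adjusted p = 0.000143 and 0.00011), 12.2-fold and 10.5-fold lower than HR1.

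*Ltbp1* (chromosome 17, 75005480 to 75392512, plus strand) was at 681, 336 and 462 CPM in HR1, 629, 729 and 578 CPM in LM1, and 1124, 1015 and 1134 CPM in LM9. All LM9 tumours were above the rest, and LM1 overlapped HR1. It rose by 1.15 ± 0.24 in LM9 (edgeR adjusted p = 0.00613), and LM1 was at 0.39 ± 0.24 (adjusted p = 0.232). Without HR1 replicate 1 the LM1 difference passed as well (log2 fold change 0.70, adjusted p = 0.00557). *Ltbp2* and *Ltbp3* passed in none of the comparisons with all tumours, *Ltbp2* with HR1 levels from 4.12 to 96.8 CPM. With HR1 replicate 1 left out, *Ltbp2* in LM9 was −2.27 against LM1 (edgeR adjusted p = 0.00689).

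Of the receptors, *Tgfbr1* and *Bmpr1a* were lower in both models, and the decoy receptor *Bambi* fell further than either in LM9. In LM1 *Bambi* did so only with HR1 replicate 1 kept. *Tgfbr1*, the type I TGF-beta receptor, was at 60.1, 51.8 and 29.8 CPM in HR1 and between 24.2 and 29.5 CPM in the 6 LM tumours. All LM tumours were below HR1, narrowly so for HR1 replicate 3. The falls were −0.78 ± 0.24 in LM1 and −0.83 ± 0.24 in LM9 (edgeR adjusted p = 0.0322 and 0.0223). Its partner *Tgfbr2*, the type II receptor, was at 370, 187 and 181 CPM in HR1, 340, 402 and 333 CPM in LM1, and 362, 395 and 360 CPM in LM9. HR1 replicate 1 was inside the LM range and the other HR1 tumours were below it. With all tumours *Tgfbr2* did not pass (0.57 ± 0.23 for LM1 and LM9 together, adjusted p = 0.0761), and without HR1 replicate 1 it rose by 1.00 (edgeR adjusted p = 8.65e-05).

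*Bmpr1a*, a type I BMP receptor, was at 116, 169 and 193 CPM in HR1, 87.9, 102 and 107 CPM in LM1, and 91.0, 93.0 and 88.2 CPM in LM9. All LM tumours were lower than all HR1 tumours. It fell by 0.69 in LM1 and by 0.81 in LM9 (s.e. 0.19 for each, edgeR adjusted p = 0.0209 and 0.00915). *Bmpr2*, the type II BMP receptor mutated in heritable pulmonary hypertension, was at 78.6, 72.0 and 72.7 CPM in HR1, 60.4, 69.9 and 54.9 CPM in LM1, and 45.4, 44.2 and 40.7 CPM in LM9. The models did not overlap and ran HR1, LM1, LM9 from high to low. In LM9 the fall was −0.78 ± 0.13 (edgeR adjusted p = 0.00214), and in LM1 the value of −0.27 ± 0.13 did not pass (adjusted p = 0.132).

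*Acvr2a*, a type II receptor for activins, was the 1 receptor of 11 that rose with all tumours. It was at 10.6, 5.47 and 7.26 CPM in HR1, 13.1, 13.5 and 11.3 CPM in LM1, and 14.5, 16.7 and 13.3 CPM in LM9. Every LM tumour was above HR1, LM1 replicate 3 by the least. The change was 0.93 ± 0.25 in LM9 (edgeR adjusted p = 0.0181) and 0.70 ± 0.25 in LM1 (adjusted p = 0.059), which passed once HR1 replicate 1 was left out (1.00, edgeR adjusted p = 0.0021).

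*Eng* encodes endoglin, a co-receptor best known in endothelium. It was at 12.0, 14.8 and 10.7 CPM in HR1, 7.67, 6.18 and 7.29 CPM in LM1, and 10.05, 8.77 and 9.90 CPM in LM9. Both LM models were below HR1, and LM9 was above LM1. The fall passed in LM1 (−0.83 ± 0.20, edgeR adjusted p = 0.0126) and not in LM9 (−0.39 ± 0.20, adjusted p = 0.145).

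*Bambi* encodes a pseudoreceptor without a kinase domain, which TGF-beta and BMP signalling can induce. It was at 44.0, 6.51 and 15.8 CPM in HR1, 6.26, 5.71 and 6.58 CPM in LM1, and 3.24, 2.77 and 1.64 CPM in LM9. HR1 replicate 1 was the highest, HR1 replicate 2 lay within the LM1 range, and LM9 was below all others. It fell by 3.11 in LM9 (s.e. 0.63, edgeR adjusted p = 0.00525) and by 1.84 in LM1 (s.e. 0.60, adjusted p = 0.0412). Without HR1 replicate 1 the LM9 fall was −2.12 (adjusted p = 0.00122) and the LM1 value of −0.84 no longer passed (edgeR adjusted p = 0.083). *Tgfbr3*, *Acvr1*, *Acvr1b* and *Acvr2b* passed in no comparison with all tumours, and *Acvr2b* stayed under 0.5 CPM in every tumour.

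**Figure D3:**
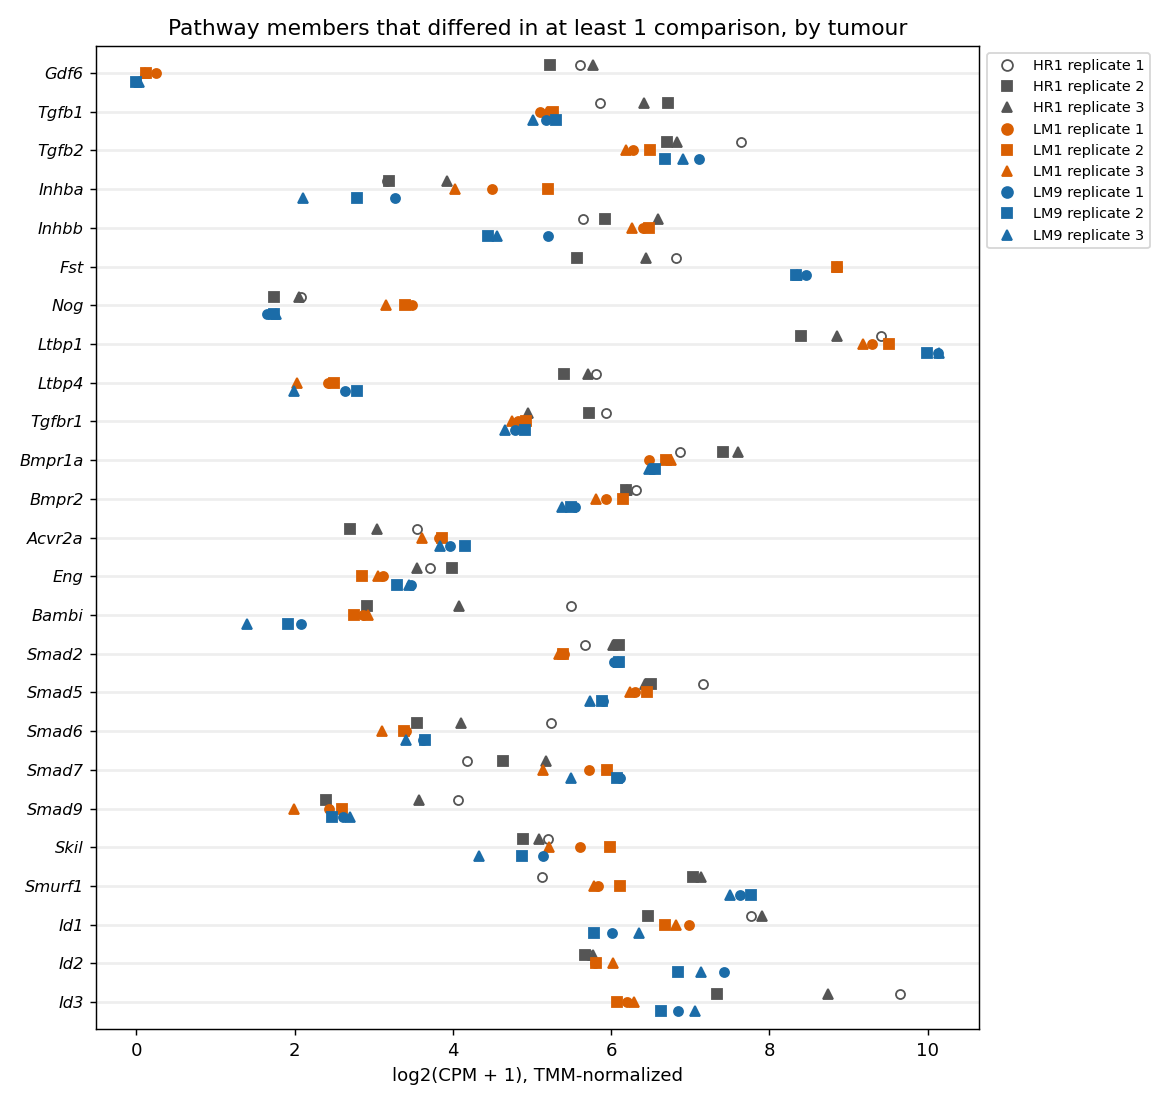
Level in each of the 9 tumours (horizontal axis, log2 of TMM-normalized CPM + 1) of the 25 members that passed in at least 1 of 4 comparisons, with HR1 in grey (replicate 1 open), LM1 in orange and LM9 in blue. *Gdf6* and *Ltbp4* show HR1 far from the LM tumours, while the open HR1 point lies apart from the other HR1 points for *Bambi*, *Smad6* and *Smurf1*.

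Of the receptor-regulated Smads, *Smad2*, *Smad5* and *Smad9* passed in at least 1 comparison. *Smad2*, which carries TGF-beta and activin signals, was at 50.0, 67.3 and 64.0 CPM in HR1, 41.3, 41.1 and 39.7 CPM in LM1, and 64.4, 67.6 and 66.9 CPM in LM9. LM1 was below all other tumours and LM9 overlapped HR1. It fell by 0.57 in LM1 (s.e. 0.14, edgeR adjusted p = 0.0117), and LM9 was at 0.13 ± 0.13 (adjusted p = 0.455). *Smad5*, which carries BMP signals, was at 142, 89.6 and 84.9 CPM in HR1, 78.1, 86.6 and 74.8 CPM in LM1, and 58.7, 57.9 and 52.0 CPM in LM9. LM9 was below all other tumours and fell by 0.91 against HR1 (s.e. 0.20, edgeR adjusted p = 0.00739).

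*Smad9*, also on the BMP branch, was at 15.8, 4.28 and 10.9 CPM in HR1, 4.41, 5.07 and 2.97 CPM in LM1, and 5.11, 4.53 and 5.51 CPM in LM9. HR1 replicate 2 lay among the LM tumours. The fall for LM1 and LM9 together (−1.17 ± 0.36, edgeR adjusted p = 0.0286) did not hold without HR1 replicate 1 (−0.73, adjusted p = 0.0823 by edgeR) or by limma-voom (−0.92, adjusted p = 0.0879). *Smad1*, *Smad3* and the common partner *Smad4* passed in no comparison with all tumours, and their log2 fold changes for LM1 and LM9 together were 0.15, −0.47 and −0.01. Without HR1 replicate 1 these values were 0.33, −0.02 and −0.13. Leaving out HR1 replicate 1 brought *Smad4* past the threshold in LM1 (−0.34, edgeR adjusted p = 0.048).

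The inhibitory Smads, themselves induced by the pathway, moved apart. *Smad7*, which blocks TGF-beta and BMP type I receptors, was at 17.2, 23.8 and 35.1 CPM in HR1, 51.8, 61.0 and 34.3 CPM in LM1, and 68.2, 66.4 and 44.2 CPM in LM9. All LM tumours but LM1 replicate 3 were above HR1. It rose by 0.95 ± 0.31 in LM1 and by 1.23 ± 0.31 in LM9 (edgeR adjusted p = 0.0411 and 0.0135), and without HR1 replicate 1 the LM1 rise of 0.74 just missed the threshold (adjusted p = 0.0515). *Smad6*, which mainly blocks BMP signals, was at 36.7, 10.7 and 16.2 CPM in HR1, 9.60, 9.42 and 7.62 CPM in LM1, and 11.3, 11.5 and 9.59 CPM in LM9. LM1 was below HR1, and LM9 overlapped its lowest tumour. The fall for LM1 and LM9 together (−1.11 ± 0.33, edgeR adjusted p = 0.0244) was −0.45 without HR1 replicate 1 (adjusted p = 0.0662 by edgeR) and −0.86 by limma-voom (adjusted p = 0.0679).

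*Skil*, a Smad co-repressor that TGF-beta itself induces, was at 35.7, 28.5 and 33.1 CPM in HR1, 47.8, 62.4 and 36.3 CPM in LM1, and 34.3, 28.4 and 19.2 CPM in LM9. LM1 was above HR1 and LM9 overlapped HR1, but neither model passed the test against HR1 (adjusted p = 0.102 and 0.46 by edgeR). *Smurf1*, a ubiquitin ligase for BMP Smads (chromosome 5, 144876495 to 144965899, minus strand), was at 33.9, 130 and 140 CPM in HR1, 56.1, 68.2 and 54.0 CPM in LM1, and 197, 216 and 180 CPM in LM9. HR1 replicate 1 was the lowest tumour of all, and LM9 was above all others. With all tumours neither model passed against HR1. Without HR1 replicate 1 *Smurf1* fell by 1.17 in LM1 and rose by 0.56 in LM9 (edgeR adjusted p = 9.77e-05 and 0.0072). *Smurf2*, its relative, was at 86.4 to 130 CPM in all 9 tumours and passed in no comparison.

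The target genes did not move as one. *Id1*, *Id2*, *Id3* and *Id4* encode helix-loop-helix proteins without a basic region, which bind E proteins and keep them off DNA, and BMP signals induce them in many cells. *Id3* (chromosome 4, 136143822 to 136145392, plus strand) was at 801, 161 and 428 CPM in HR1. It was at 72.5, 66.4 and 77.2 CPM in LM1 and at 114, 97.8 and 132 CPM in LM9. All LM tumours were below all HR1 tumours, and LM9 was above LM1. *Id3* fell by 2.69 in LM1 and by 2.01 in LM9 on the log2 scale (s.e. 0.48 and 0.47, edgeR adjusted p = 0.0037 and 0.01). Without HR1 replicate 1, its highest tumour, the falls were −2.03 and −1.36 and still passed.

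*Id1* (chromosome 2, 152736251 to 152737410, plus strand) was at 217, 87.6 and 238 CPM in HR1, 125, 102 and 112 CPM in LM1, and 63.6, 53.8 and 80.9 CPM in LM9. LM9 was below every other tumour and LM1 lay within the HR1 range. It fell by 1.45 in LM9 (s.e. 0.34, edgeR adjusted p = 0.00989), with −0.68 ± 0.33 in LM1 (adjusted p = 0.146). *Id2* (chromosome 12, 25093799 to 25096092, minus strand) went the other way. It was at 51.8, 49.7 and 53.4 CPM in HR1, 54.7, 55.1 and 64.0 CPM in LM1, and 172, 114 and 139 CPM in LM9. The HR1 tumours were close together and LM9 was far above all others. *Id2* rose by 1.45 ± 0.17 in LM9 (2.74-fold, edgeR adjusted p = 0.000403), and LM1 was at 0.16 ± 0.16 (adjusted p = 0.457).

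*Id4* was under 0.5 CPM in every tumour and passed in no comparison with all tumours. It had 0, 7 and 9 counts in HR1 and at most 2 in LM9, and without HR1 replicate 1 LM9 passed against HR1 (edgeR adjusted p = 0.023). *Tgfbi*, a matrix protein gene named for its induction by TGF-beta, was at 70.9, 654 and 216 CPM in HR1, 214, 233 and 234 CPM in LM1, and 160, 113 and 141 CPM in LM9. HR1 spanned both LM models. With all tumours it did not pass (−0.83 ± 0.52 for LM1 and LM9 together, adjusted p = 0.226), and without HR1 replicate 1, its lowest tumour, it fell by 1.29 (edgeR adjusted p = 0.00802).

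**Figure D4:**
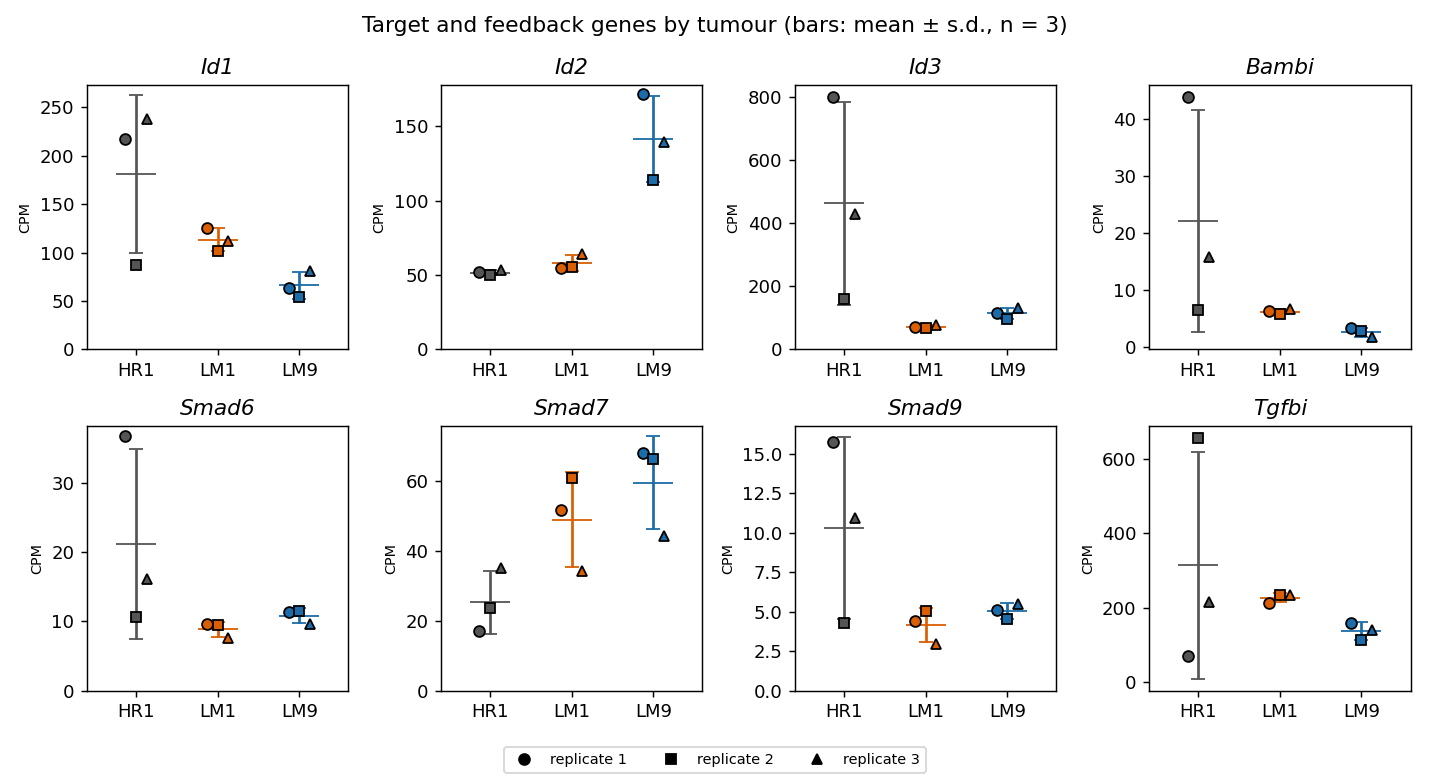
Level (vertical axis, CPM) of 8 target and feedback genes in each tumour, with the mean and s.d. of 3 tumours per model. *Id2* is highest in LM9 (mean 141 CPM) and *Id1* lowest there (mean 66.1 CPM), *Id3* is below HR1 in both LM models, and HR1 replicate 1 (circle) lies far from the other HR1 tumours for *Bambi*, *Smad6* and *Id3*.

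Between the metastatic models 9 members differed. LM9 was lower than LM1 for *Gdf6*, *Inhba* (−2.03 ± 0.44, edgeR adjusted p = 0.0141), *Inhbb* (−1.65 ± 0.28, adjusted p = 0.00595), *Nog* (−2.01 ± 0.25, adjusted p = 0.00183), *Bmpr2* (−0.51 ± 0.13, adjusted p = 0.0247) and *Skil* (−0.84 ± 0.26, adjusted p = 0.0468). LM9 was higher for *Smad2* (0.70 ± 0.14, edgeR adjusted p = 0.00891), *Smurf1* (1.74 ± 0.44, adjusted p = 0.0243) and *Id2* (1.29 ± 0.16, adjusted p = 0.00189). LM1 and LM9 did not overlap for any of the 9, which adds no support, since the test picked these genes on the same values. Members that did not pass, such as *Gdf15*, *Tgfb3* and *Ltbp2*, did not overlap either. The share over all genes was not counted. Among the 9, the ligand and antagonist genes (*Gdf6*, *Inhba*, *Inhbb*, *Nog*) were lower in LM9, with *Gdf6* near 0 counts in both models. Other ligands and antagonists did not share that direction. Without HR1 replicate 1, LM9 was higher for *Gdf15* (0.70), *Tgfb2* (0.59) and *Grem1* (1.32) (edgeR adjusted p = 0.00982, 0.00688 and 0.0048). In that fit 2 ligands were higher and 4 lower, and 1 antagonist went each way. Of the 9 fits that left out 1 tumour, 7 lost the call of *Skil*, 6 that of *Smurf1*, 5 that of *Bmpr2*, 3 that of *Gdf6* and 1 that of *Inhba*. In a fit of the 6 LM tumours alone 26 members passed, beside 56.3% of all genes in that fit.

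Per kilobase of exon, on the scale of mean CPM per kb, the highest members in LM1 were *Tgfb3* at 126, *Fst* at 101 and *Id1* at 97.6 CPM per kb. In LM9 *Ltbp1* was highest at 102 CPM per kb, followed by *Fst* at 72.5 and *Tgfb3* at 65.0 CPM per kb. *Fst* and *Id1* in LM1, and *Fst* and *Tgfb3* in LM9, overlapped between tumours. No order is given for HR1, since single tumours set its means: *Id3* ran from 161 to 801 CPM, *Tgfbi* from 70.9 to 654 CPM and *Tgfb3* from 119 to 412 CPM.

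The 22 members that passed in no comparison with all tumours were 7 ligands, 2 antagonists, 2 latent binding proteins, 5 receptors, 3 Smads, 1 modulator and 2 targets. Their log2 fold changes for LM1 and LM9 together ran from −2.53 (*Bmp7*) to 0.87 (*Grem1*), with a median of −0.02. Without HR1 replicate 1 *Bmp7* was at −3.09 and *Grem1* at 0.30, below *Tgfbr2* (1.00), *Tgfb3* (0.94) and *Tgfbr3* (0.93). Among the 22 were genes at a steady level, such as the receptor gene *Acvr1* (59.6 to 77.9 CPM in all tumours), and genes with 1 HR1 tumour far from the others, such as *Bmp7*. With HR1 replicate 1 left out, 11 of the 22 passed in at least 1 comparison. The matching share over all genes was not counted, so the 11 cannot be set against genes in general. Leaving out that tumour raised the share of all genes that passed as well. It went from 43.6% to 56% for LM1 and LM9 together and from 22% to 45.5% for LM9 against LM1.

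Of 79 further pathway genes listed by role, 65 were in the tables, and 36 of these (55.4%) differed in LM1 and LM9 together against HR1, 14 higher and 22 lower, beside 43.6% of all genes. The counts were 26 for LM1 (beside 35.5% of all genes), 36 for LM9 (beside 42.3%) and 17 for LM9 against LM1 (beside 22%). The 4 counts without HR1 replicate 1 were 43, 37, 47 and 30, while the shares of all genes rose to 56, 52.8, 55.7 and 45.5%. By role, 4 of 9 other ligands (1 higher), 8 of 15 other antagonists and carriers (2 higher), 6 of 9 other receptors and co-receptors (2 higher), 6 of 14 other Smad regulators (all higher) and 12 of 18 other target genes (3 higher) passed. Without HR1 replicate 1, the Smad regulators had 6 higher and 3 lower, and the other ligands had 4 higher and 2 lower. *Bmp15*, among those 4, was at 34.4, 0.225 and 0.0772 CPM in HR1 and at 10.8 to 18.5 CPM in the LM tumours.

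*Gdf5*, a joint-forming ligand close to *Gdf6*, rose against HR1 (0.465, 9.25 and 4.79 CPM) to 23.9 to 29.5 CPM in LM1 and 22.2 to 28.6 CPM in LM9, a log2 change of 2.42 ± 0.69 (edgeR adjusted p = 0.0216). *Gdf3* was at 2.76, 3.92 and 0.566 CPM in HR1, 1.98 to 2.14 CPM in LM1 and 0.343 to 0.428 CPM in LM9. LM1 lay inside the HR1 range and LM9 below it, and *Gdf3* fell in LM9 (−2.66 ± 0.63, edgeR adjusted p = 0.00998) while LM1 was at −0.23 ± 0.58 (adjusted p = 0.783). Its call for LM1 and LM9 together (−1.45 ± 0.49, adjusted p = 0.0402) averages these, and just missed without HR1 replicate 1 (adjusted p = 0.052). Of the antagonists and carriers *Chrdl2*, a chordin-like BMP antagonist, rose from at most 0.180 CPM in HR1 to 0.559 to 0.651 CPM in LM1 and 2.04 to 3.74 CPM in LM9 (edgeR adjusted p = 0.00326 for both together). HR1 had 0, 8 and 2 counts of it, so no fold is given. Decorin (*Dcn*), a TGF-beta-binding matrix proteoglycan and a fibroblast marker, fell by 5.13 (s.e. 1.14, adjusted p = 0.00726), but it was at 17605 CPM in HR1 replicate 1 against 432 and 329 CPM in the other HR1 tumours, and without that tumour the value was −1.12 (adjusted p = 0.0553). That value averages unlike ones, 0.64 in LM1 (adjusted p = 0.329) and −2.88 in LM9 (edgeR adjusted p = 0.00192).

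Integrins that release TGF-beta from its latent complex also moved apart. *Itgb6*, the beta 6 subunit, was at most 3.94 CPM in HR1, 8.28 to 12.8 CPM in LM1 and 15.9 to 18.1 CPM in LM9, a rise of 2.49 ± 0.35 (edgeR adjusted p = 0.000802). *Itgb8* was low throughout, at 0.266, 1.94 and 0.823 CPM in HR1 and at most 0.204 CPM in the LM tumours, and it passed the test (edgeR adjusted p = 0.0106). *Ski*, a co-repressor related to *Skil*, rose from 164, 111 and 103 CPM in HR1 to 179 to 277 CPM in LM1 and 214 to 302 CPM in LM9 (0.98 ± 0.22, edgeR adjusted p = 0.00689). *Junb*, an early TGF-beta target and AP-1 subunit, rose from 228 to 313 CPM in HR1 to 790 to 1033 CPM in LM1 and 662 to 964 CPM in LM9 (1.73 ± 0.19, adjusted p = 0.000256). The BMP target *Dlx5* was at 1.63, 3.76 and 12.6 CPM in HR1 and at most 0.504 CPM in every LM tumour, with 2, 0 and 1 counts in LM9 (edgeR adjusted p = 0.000408).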

How the data were processed

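Per the study's methods, the authors aligned single-end reads of 50 bases from stranded mRNA libraries to mm10 with STAR and made the deposited read counts with qCount of QuasR, as 5′ ends of reads over the exon union of each gene. Versions, the strand setting and the filter behind the listed genes are not given in the sources used here. Of 14108 Entrez identifiers 14085 were matched to a symbol through a RefSeq table (GRCm38.p6).

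From these counts, one model of 3 groups was fitted with edgeR 4.0.16 under R 4.3.3, with TMM factors, filterByExpr and the robust quasi-likelihood F-test. Benjamini-Hochberg adjustment ran over all tested genes in each of 4 comparisons (threshold 0.05), and every adjusted p without another tool beside it comes from this fit. LM1 and LM9 together is the mean of both coefficients against HR1. CPM uses TMM-scaled library sizes, and CPM per kb divides it by GENCODE exon-union lengths. Alternatives were the study's own limma-voom (limma 3.58.1), DESeq2 1.42.0, other size factors and filters, a replicate block and leaving out each tumour. At these depths 3 counts were worth 0.0997 CPM or less, for counting error only.

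The members and lists were chosen with earlier results of these data known. Members with an adjusted p under 0.05 in any of 4 comparisons and a mean of at least 1 CPM in a model were described in full. Of each list of other pathway genes, the called gene with the largest rise and the one with the largest fall for LM1 and LM9 together were named under the same level rule, and *Nfib* was named as it defines the models. Genes named outside that rule were chosen after their values were seen. Replicate numbers did not pair the tumours, as deviations of same-numbered tumours correlated from −0.117 to 0.162.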

Additional observations from a re-analysis of the deposited data

Results flagged for a closer look

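The effect of the metastatic models against HR1 differed between LM1 and LM9 for 9 members, by the edgeR test of LM9 against LM1, which is the difference of both contrasts with HR1. LM9 was lower for *Gdf6* (log2 fold change −3.57, with 9, 4 and 3 counts in LM1 and 0, 0 and 1 in LM9, so at least 1.77-fold lower with 3 counts per library as the floor), *Inhba* (−2.03), *Inhbb* (−1.65), *Nog* (−2.01), *Bmpr2* (−0.51) and *Skil* (−0.84). LM9 was higher for *Smad2* (0.70), *Smurf1* (1.74) and *Id2* (1.29). The share of all genes that differed between LM9 and LM1 was 22%, and 9 of 47 members is 19.1%. The calls for *Nog*, *Inhbb*, *Smad2* and *Id2* held in every fit that left out 1 tumour, whereas *Skil* was lost in 7 of 9 such fits, *Smurf1* in 6, *Bmpr2* in 5, *Gdf6* in 3 and *Inhba* in 1.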

How the results depend on the processing

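Only the 60 calls of the members with all tumours were followed here, so calls gained under an alternative are not in these counts. Over all alternatives, 875 values kept their direction and their side of the threshold, 125 kept the direction and missed the threshold, and 0 reversed. Of the missed ones 97 came from leaving out 1 tumour. The members that passed with an added 2-fold minimum were 10 for LM1 and LM9 together versus HR1 and 10 for LM1 versus HR1, beside 23.7% and 21.9% of all genes. In fits of only the tumours compared, LM1 versus HR1 gave 6 members and 17 other pathway genes (22% of all genes), and LM9 versus LM1 gave 26 and 39 (56.3%). With the replicate number as a replicate block, which did not pair the tumours, 17, 11, 16 and 8 members passed for LM1 and LM9 together, LM1 versus HR1, LM9 versus HR1 and LM9 versus LM1, beside 37.2, 29.8, 36 and 16.3% of all genes.

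Leaving out each tumour in turn, members that passed ranged from 16 to 25 for LM1 and LM9 together, 8 to 19 for LM1 versus HR1, 13 to 25 for LM9 versus HR1 and 4 to 20 for LM9 versus LM1, and other pathway genes from 34 to 43, 18 to 37, 28 to 47 and 9 to 30, while the share of all genes ranged from 35 to 56%, 22.1 to 52.8%, 26.7 to 55.7% and 8.16 to 45.5%. LM1 versus HR1 gave 8 members without LM1 replicate 1 or 2, 10 without LM9 replicate 1 and 9 without LM9 replicate 2. LM9 versus HR1 gave 25 without HR1 replicate 1. LM9 versus LM1 gave 20 without HR1 replicate 1, 5 without LM1 replicate 1 or LM9 replicate 1 and 4 without LM9 replicate 2. For other pathway genes LM9 versus LM1 gave 30 without HR1 replicate 1, 9 without LM1 replicate 1 or 3, 11 without LM9 replicate 1 or 2 and 10 without LM9 replicate 3. These fits have fewer tumours, and the cause of the rise without HR1 replicate 1 was not tested.

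Calls lost in several of the 9 fits without 1 tumour are given with the range of the adjusted p in those fits. For LM1 versus HR1 they were *Tgfb2* (6 fits, 0.0507 to 0.109), *Inhba* (5, 0.0728 to 0.194), *Tgfbr1* (7, 0.0507 to 0.0955), *Bmpr1a* (4, 0.0505 to 0.0851), *Bambi* (7, 0.054 to 0.118), *Smad6* (6, 0.0579 to 0.114), *Smad7* (6, 0.0515 to 0.147) and *Smad9* (8, 0.0697 to 0.137). For LM9 versus LM1 they were *Skil* (7, 0.0502 to 0.146), *Smurf1* (6, 0.057 to 0.0937), *Bmpr2* (5, 0.0713 to 0.103) and *Gdf6* (3, 0.0505 to 0.0584), and for LM1 and LM9 together *Nog* (6, 0.0633 to 0.0979), *Smad9* (7, 0.0525 to 0.0823) and *Smad6* (3, 0.0545 to 0.0662). For LM9 versus HR1, *Tgfbr1* was lost without HR1 replicate 2 or LM9 replicate 1 or 3 (0.0572 to 0.0785), *Smad7* without LM9 replicate 1 or 2 (0.0511 and 0.0515) and *Acvr2a* without LM9 replicate 1 or 2 (0.0526 and 0.0719). For LM1 and LM9 together, *Eng* was lost without HR1 replicate 2 (0.0684) and *Id1* and *Ltbp1* without HR1 replicate 3 (0.0596 and 0.0535), and *Inhba* in LM9 versus LM1 without LM9 replicate 2 (0.0541). Depth limited *Gdf6*, *Id4* and *Dlx5*, which had few or 0 counts in LM9.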

Other observations

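Some pathway targets outside the members were far lower in LM9 than in LM1, and were picked after their values were seen. Of the 18 other target genes 6 passed in LM9 against LM1, 5 lower and 1 higher, or 33.3% beside 22% of all genes. Some levels were higher in LM9, as for *Fn1* (model means 883 CPM in LM1 and 3236 CPM in LM9) and *Cdkn1a* (69.6 and 128 CPM). *Msx2*, a homeobox gene that BMP signals induce, was at 4.19, 2.23 and 2.86 CPM in HR1 and 6.43, 5.07 and 6.68 CPM in LM1, and had 0, 1 and 0 counts in LM9. *Hey1*, a transcriptional repressor that Notch and BMP signals induce, was at 2.32 to 6.90 CPM in HR1, 1.85 to 2.62 CPM in LM1, and had 2, 2 and 3 counts in LM9. *Acta2*, the smooth muscle actin of myofibroblasts and a TGF-beta target, was at 95.7, 606 and 327 CPM in HR1, 60.9 to 71.7 CPM in LM1 and 0.938 to 1.37 CPM in LM9. LM9 against LM1 gave a log2 fold change of −5.94 ± 0.65 for *Acta2* (edgeR adjusted p = 0.00112). *Hey1* passed too (edgeR adjusted p = 0.000755), and no fold is given for it or *Msx2*, since their LM9 counts were at or under 3.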
